A study of Mus musculus with 9 samples.

Results

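The places of histone H3 acetylated at lysine 18 (H3K18ac) were described in lung endothelial cells, from 1 H3K18ac library set against 1 IgG library and from the peak list that belongs to the H3K18ac library. The count table joins 8 peak lists under shared identifiers, 1309635 regions in all, and the list described here was picked out by its number of regions and its smallest width of 104 bp. It was tied to H3K18ac by the density of H3K18ac reads in the bases that no other identifier covers, not by a label. It holds 167382 regions on chromosomes 1 to 19, X and Y, 3943 on contigs and 14 on the mitochondrial genome. The cells were isolated from wild-type (WT) mice, and no treatment, strain, age or sex was given in the sources used here. Both libraries were made by ACT-seq, in which an antibody bound in permeabilised nuclei guides a Protein A/G-Tn5 transposase that cuts and tags the DNA beside it. IgG, an antibody without a chromatin target, gave the background. The series holds 9 libraries, 8 of histone marks and 1 of IgG. Each target had 1 library, so no value below has a replicate error, no test between libraries was possible, and intervals cover counting error only.

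Acetylation removes the positive charge of a histone lysine. H3K18ac is placed mainly by the paired acetyltransferases p300 and CBP, which also acetylate lysine 27 of the same tail, and it is removed by sirtuins and histone deacetylases, SIRT7 among them. It is found at the promoters of active genes and at enhancers, where bromodomain proteins read it. The acetyl group comes from acetyl-CoA, and by its title the study asks whether imported cystine, broken down oxidatively, feeds histone acetylation at endothelial genes.

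The promoter sequences of 9 genes show which kinds of start the peaks lay on and which they did not. Each line gives the 250 bases before the transcription start, 5′ to 3′ on the gene's strand, from RefSeq on GRCm38.p6. Capitals mark matches, on either strand, to the letters of 6 motifs. The motif of the stress-inducible factor AP-1 was searched as TGANTCA, and that of cAMP-responsive factors (CRE) as TGACGTCA. The motif of ETS factors, which include the endothelial regulators Erg and Fli1, was searched as CCGGAAG. For the promoter factor NF-Y the letters were CCAAT, for the GC box bound by Sp factors they were GGGCGG, and for the TATA box of core promoters they were TATAAA. A match is a description of letters, not of binding. The first 6 starts lay under an H3K18ac peak and the last 3 did not. Kdr (the main VEGF receptor, chr5:75978456-75978705, minus strand, 238 of 250 bases covered) and Tie1 (an endothelial receptor kinase, chr4:118489850-118490099, minus strand, 250 covered) are endothelial starts. Slc7a11 (the cystine importer xCT, chr3:50443614-50443863, minus strand, 250 covered) and Nfe2l2 (NRF2, its activator in oxidative stress, chr2:75704664-75704913, minus strand, 228 covered) belong to the cystine pathway. Ep300 (p300, chr15:81585964-81586213, plus strand, 250 covered) encodes a writer of the mark, and Sp1 (chr15:102406066-102406315, plus strand, 250 covered) a GC-box factor under one of the widest peaks. Cldn5 (claudin 5 of endothelial junctions, chr16:18776597-18776846, plus strand), Ager (a marker of alveolar type 1 cells, chr17:34597600-34597849, plus strand) and Hdac8 (a deacetylase, chrX:102505159-102505408, minus strand) had 0 covered bases.
Kdr: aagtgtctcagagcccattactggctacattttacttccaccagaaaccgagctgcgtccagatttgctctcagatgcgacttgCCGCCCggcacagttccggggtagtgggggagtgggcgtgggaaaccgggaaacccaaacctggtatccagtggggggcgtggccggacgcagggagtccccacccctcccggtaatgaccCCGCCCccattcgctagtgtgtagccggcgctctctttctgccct
Tie1: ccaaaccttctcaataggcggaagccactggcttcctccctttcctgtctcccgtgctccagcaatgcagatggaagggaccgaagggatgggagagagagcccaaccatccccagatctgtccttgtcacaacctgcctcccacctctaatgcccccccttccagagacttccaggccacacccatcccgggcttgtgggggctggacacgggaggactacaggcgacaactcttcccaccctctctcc
Slc7a11: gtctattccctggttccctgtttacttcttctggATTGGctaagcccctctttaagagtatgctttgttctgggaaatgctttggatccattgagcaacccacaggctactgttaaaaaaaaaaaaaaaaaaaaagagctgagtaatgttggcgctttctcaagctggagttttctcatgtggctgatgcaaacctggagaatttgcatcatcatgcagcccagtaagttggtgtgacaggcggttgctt
Nfe2l2: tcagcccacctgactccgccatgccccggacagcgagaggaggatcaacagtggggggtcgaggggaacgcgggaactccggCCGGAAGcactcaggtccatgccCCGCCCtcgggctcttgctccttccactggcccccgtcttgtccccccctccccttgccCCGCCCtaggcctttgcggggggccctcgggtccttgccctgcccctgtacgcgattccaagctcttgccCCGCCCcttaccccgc
Ep300: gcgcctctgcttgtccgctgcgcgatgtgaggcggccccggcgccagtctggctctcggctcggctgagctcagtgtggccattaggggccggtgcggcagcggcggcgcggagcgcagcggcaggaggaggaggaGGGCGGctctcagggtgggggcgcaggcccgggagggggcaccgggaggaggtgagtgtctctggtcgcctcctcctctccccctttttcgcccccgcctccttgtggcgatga
Sp1: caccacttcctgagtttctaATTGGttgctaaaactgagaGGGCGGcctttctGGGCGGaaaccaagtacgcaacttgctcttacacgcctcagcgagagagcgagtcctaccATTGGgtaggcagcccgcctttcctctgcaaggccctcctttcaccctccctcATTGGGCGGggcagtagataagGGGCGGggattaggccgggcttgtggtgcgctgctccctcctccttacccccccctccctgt
Cldn5: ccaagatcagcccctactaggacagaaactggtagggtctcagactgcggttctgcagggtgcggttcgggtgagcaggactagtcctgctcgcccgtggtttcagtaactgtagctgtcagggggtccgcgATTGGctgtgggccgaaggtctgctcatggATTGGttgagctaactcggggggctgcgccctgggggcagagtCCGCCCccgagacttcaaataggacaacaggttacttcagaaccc
Ager: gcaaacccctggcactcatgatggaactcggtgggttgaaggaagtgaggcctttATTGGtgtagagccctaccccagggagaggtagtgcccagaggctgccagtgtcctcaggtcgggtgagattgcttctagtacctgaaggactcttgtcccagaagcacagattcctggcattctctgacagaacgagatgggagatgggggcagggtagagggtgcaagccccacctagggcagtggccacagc
Hdac8: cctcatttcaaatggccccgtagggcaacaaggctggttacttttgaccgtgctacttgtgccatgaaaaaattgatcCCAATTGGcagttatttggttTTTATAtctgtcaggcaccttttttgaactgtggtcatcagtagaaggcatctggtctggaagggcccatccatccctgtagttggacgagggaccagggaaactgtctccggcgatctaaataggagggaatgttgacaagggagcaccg

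Covered starts ranged from CpG-rich to CpG-poor. The Ep300 stretch held 25 CpG dinucleotides, that of Nfe2l2 18 and that of Kdr 16, whereas those of Tie1 and Slc7a11 held 6 and 2. Cldn5, without a peak, held 12 CpG dinucleotides, 2 NF-Y matches and 1 Sp match. Hdac8 was the one start of the 9 with a TATA match.

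H3K18ac reads were spread over many identifiers and IgG reads over few. The table held 1546265 H3K18ac reads and 365999 IgG reads, counted over 578465 identifiers, each of which joins up to 8 regions from unrelated places. H3K18ac had a read in 159044 identifiers (27.5%) and IgG in 903 (0.156%), with 586 identifiers in common. Of the 61540 identifiers with at least 10 reads over both libraries, 60984 (99.1%) were at least 2-fold higher in H3K18ac in CPM, reads scaled to an equal total per library, with a prior count of 2. Another 447 (0.726%) were at least 2-fold lower. No IgG read fell in 60910 of the 61540, which therefore passed the minimum through their H3K18ac reads alone, so that the minimum fixed their call and the share of 99.1% is a description. Against a floor of 3 IgG reads (8.2 CPM, equal on 2-fold to 25.3 H3K18ac reads), 10366 identifiers (16.8%) were still 2-fold higher. At this IgG depth a 2-fold difference was therefore not measurable for most identifiers, whose median among those called was 15 H3K18ac reads.

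IgG reads gathered in few places. The 100 identifiers with most IgG reads held 74.2% of the IgG library and 0.0874% of the H3K18ac library. Mitochondrial identifiers held 13.5% of IgG reads against 0.03% of H3K18ac reads. The highest count of 1 identifier was 11840 reads in IgG and 233 in H3K18ac. Reads that touched more than 1 identifier were not counted. In H3K18ac peaks of 500 bp or more, 1.94% of bases lay under no other identifier. The spread and the highest counts therefore describe the counted reads only. Identifiers that hold a region of the H3K18ac list took 87.5% of H3K18ac reads and 72% of IgG reads, so the IgG share there was not small, and the reads of an identifier cannot be placed on 1 of its regions where several have bases of their own.

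In 1544 peaks the reads could be placed, because every base of the identifier that no other identifier covers (its unshared bases) lay in the H3K18ac peak. These peaks held 125 kb of unshared bases, and 67% of them had an H3K18ac read. The list was tied to H3K18ac by such densities, so the first rank of H3K18ac here was fixed by that choice and the values are a description. H3K18ac gave 11493 reads there, or 59.5 CPM per kb (58.5 to 60.6, exact Poisson 95% interval). IgG gave 0 reads, which allows up to 0.0807 CPM per kb by the same interval. H3K27ac came second with 10.8 CPM per kb (10.4 to 11.1), followed by H4K8ac with 3.19 (2.95 to 3.43) and H3K4me3 with 2.25 (2.04 to 2.48). H3K14ac gave 0.997, H3K23ac 0.545, H3K9ac 0.453 and H2AK5ac 0.326. A read that only reaches into a peak also counts, so densities over such narrow peaks are higher than base coverage.

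**Figure D1:**
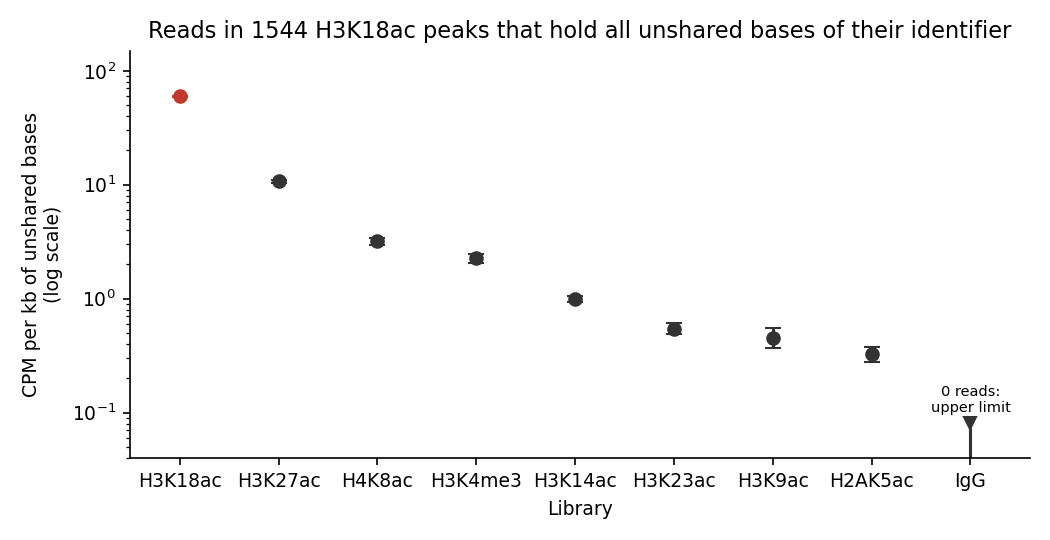
CPM per kb of unshared bases (log scale) of the 9 libraries in the 1544 placeable H3K18ac peaks, with exact Poisson 95% intervals; each library was 1 sample. H3K18ac stood at 59.5, H3K27ac at 10.8, and IgG, with 0 reads, is drawn at its upper limit of 0.0807.

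The placeable peaks differed by place in the other marks more than in H3K18ac. At the 135 that lay within 2 kb of a gene end, H3K18ac reached 51.5 CPM per kb (47.8 to 55.3), and at the 651 inside genes and 613 outside all genes it reached 60.5 (58.8 to 62.2) and 59.6 (57.9 to 61.3). H3K4me3, the promoter mark, was 17.4 CPM per kb (15.3 to 19.8) at gene ends, 1.14 inside genes and 0.948 outside. Peaks found in the H3K18ac list alone (847) held 68.3 CPM per kb of H3K18ac, and those that shared a base with another list (697) held 34.8. In the latter the unshared bases were a median of 35 bp at the edges of the peak, against 104 bp in the former.

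Me3, the mitochondrial NADP-dependent malic enzyme, led the genes with placeable H3K18ac reads, with 131 reads in 3 peaks and 0 IgG reads. One of its peaks, of 110 bp at chr7:89662102-89662211 inside the gene, took 78 H3K18ac reads, 40 H3K27ac reads, 2 H3K14ac reads and 1 H4K8ac read. The gene spans 222 kb and carried 51 H3K18ac peaks over 12658 bp, the widest of them 749 bp. Shank2 (a synaptic scaffold) followed with 80 reads, Arhgef7 (a Rac exchange factor) with 67, Mtus1 with 61, and Shroom3 and Col4a1 (a basement membrane collagen) with 58 each. Plcb1 had 55, Taok3 50, Emp1 49 and Shroom4 42. None of these 10 genes had an IgG read in its placeable peaks. The order depends on how many bases of a gene happen to be unshared, from 145 bp in Arhgef7 to 749 bp in Shroom3, and is no ranking of the genes.

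Over the whole list, a fit of reads to the unshared bases of all 8 lists gave 68 CPM per kb of H3K18ac, 13.2 of IgG and 11.8 of H3K27ac. The IgG value rested on few identifiers: it fell to 2.02 CPM per kb without the 100 identifiers with most IgG reads and was 0 in the placeable peaks. H4K8ac reached 2.09 CPM per kb in the fit. H3K14ac reached 0.824 and H3K9ac 0.189, and the fit gave 0 for H2AK5ac, H3K23ac and H3K4me3. By place, H3K18ac ran from 66.6 CPM per kb outside genes to 69.4 inside them, and IgG from 3.65 in other genes to 39.4 at gene ends. In peaks on 3 to 7 other lists the fit gave 51 CPM per kb of H3K18ac and 61.5 of IgG, over unshared bases that made up 3.17% of those peaks. The placeable peaks on another list too gave 1765 H3K18ac reads (34.8 CPM per kb) and 0 IgG reads, and the fit gave 0 for IgG in peaks of 500 bp or more, so the IgG level of shared peaks is not settled by these values.

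The peaks were narrow. Their median width was 112 bp, and 83332 (48.6%) had the smallest width of the list, 104 bp. Another 48358 measured from 105 to under 250 bp, 31266 from 250 to under 500 bp, 7920 from 500 to under 1000 bp, and 463 (0.27%) were 1000 bp or wider, up to 2540 bp. The 167382 peaks on chromosomes 1 to 19, X and Y (97.7% of all) covered 32.6 Mb or 1.2% of the sequence, and statements on places below rest on them.

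Most peaks lay away from gene ends. Within 2 kb of either end of a protein-coding gene lay 27977 peaks (16.7%, exact binomial 95% interval 16.5 to 16.9). A further 43.4% lay inside a protein-coding gene, 8.23% in another annotated gene and 31.7% outside all genes. The windows at gene ends take up 5.49% of the sequence and protein-coding genes 37.9%. The centre of a peak lay a median of 21.2 kb from the nearest gene end. Beyond 100 kb from any end still lay 30108 peaks (18%).

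Width and place went together. Of peaks at the smallest width, 10.7% lay at a gene end, and the share rose to 17% from 105 to under 250 bp, 22.4% from 250 to under 500 bp, 52% from 500 to under 1000 bp and 75.7% at 1000 bp or more. Outside all genes lay 36.1% of the narrowest peaks.

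**Figure D2:**
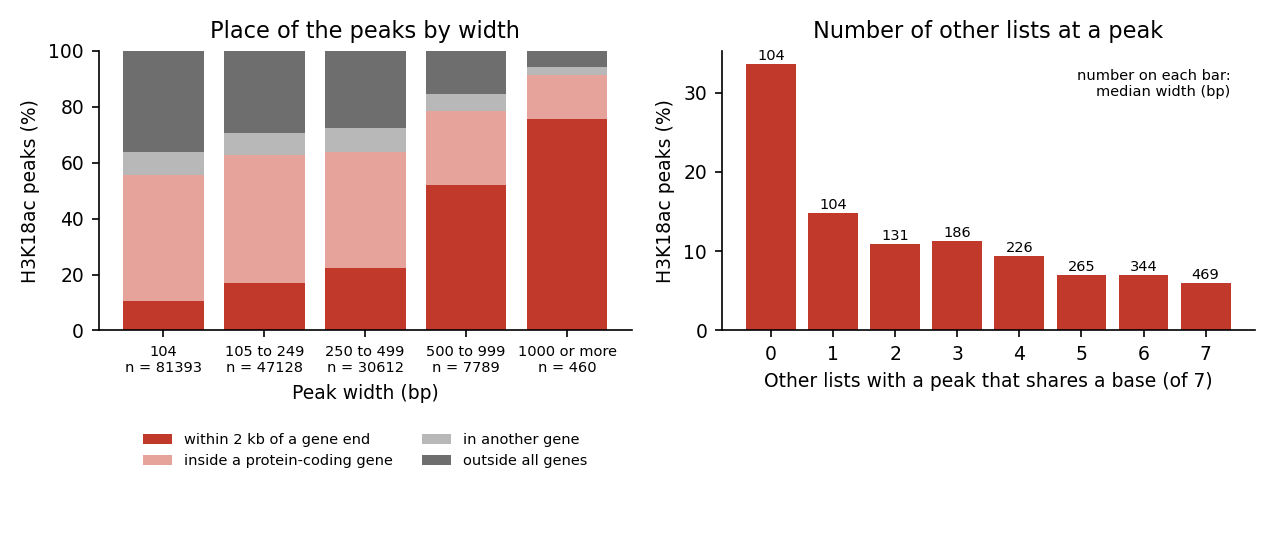
Left, shares of H3K18ac peaks in 4 kinds of place (%) for 5 classes of width, with the number of peaks under each bar; the share at gene ends runs from 10.7% at 104 bp to 75.7% at 1000 bp or more. Right, shares of H3K18ac peaks (%) by the number of other lists that share a base, with the median width above each bar, from 104 bp with none to 469 bp with 7.

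Around the 5′ ends of genes the peaks formed a sharp summit. The 5′ end here is the outer RefSeq boundary of the gene, which can lie far from a listed transcription start. Over 11079 genes longer than 10 kb with a known strand, H3K18ac peaks covered 44.8% of the 100 bases before this end. They covered 45.4% of the 100 bases after it. Coverage fell to 21.5% at 400 to 500 bp into the gene and to 8.26% at 900 to 1000 bp. At 1000 bp before the 5′ end it was 2.16%. The H3K27ac list gave almost the same profile, with 46.1% before and 46.6% after the 5′ end. H3K4me3 peaks reached further into the gene, with 53.2% at 100 to 200 bp and 46.9% at 400 to 500 bp. At the 3′ end, H3K18ac coverage was 0.785% in the 100 bases before the end and 2.29% at 500 to 600 bp beyond it. A peak lay within 2 kb of the 5′ end in 7932 of these genes (71.6%) and of the 3′ end in 3315 (29.9%).

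**Figure D3:**
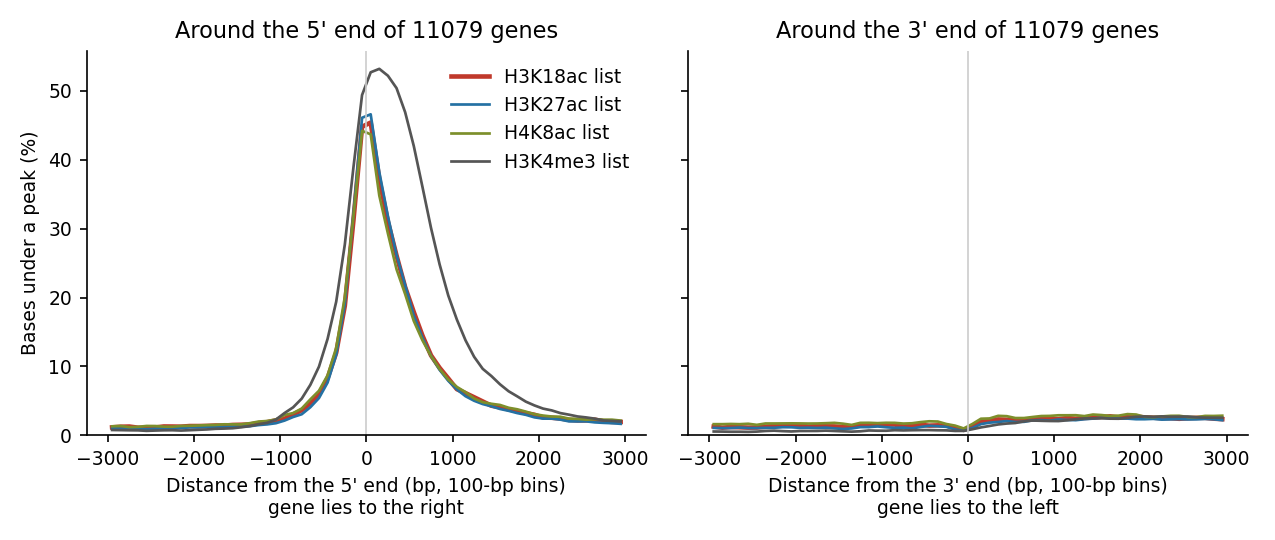
Bases under a peak (%) in 100-bp bins around the 5′ end (left) and the 3′ end (right) of 11079 protein-coding genes longer than 10 kb, for the H3K18ac list and 3 others. H3K18ac, H3K27ac and H4K8ac peaks rise together to 43.7 to 46.6% beside the 5′ end, and H3K4me3 peaks extend further into the gene.

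Of the 10 widest peaks 7 lay at a gene end. The widest of all, 2540 bp at chr17:39843027-39845566, lay outside protein-coding genes, 104953 bp from Esp38, and shared bases with all 7 other lists. No peaks were left out here for repeated sequence, and whether repeats account for this one was not tested. A peak of 1820 bp lay at chr13:58401515-58403334, over the start of Rmi1 (a partner of topoisomerase 3, start at 58402248) and just short of the end of Hnrnpk (an RNA-binding protein) at 58403343, where this gene on the minus strand begins. Then came Zmynd11, a reader of histone methylation, with 1755 bp, and Sp1 with 1579 bp. Skil, a repressor of SMAD signalling, had 1563 bp, Picalm, a clathrin adaptor, 1541 bp, and Lcor, a nuclear receptor corepressor, 1527 bp. Bhlhe40, a stress and clock repressor, had 1503 bp, and Prdm10 had 1500 bp inside the gene, 4517 bp from its end. A peak of 1522 bp lay 85871 bp from Jcad, a junctional protein of endothelial cells. All 10 of these peaks were covered by all 7 other lists.

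At gene ends, 14965 of 21883 protein-coding genes (68.4%) had an H3K18ac peak within 2 kb, 12800 (58.5%) had one wider than the smallest width, and 13433 (61.4%) had one within 1 kb. Over the gene span with 2 kb either side, 16913 (77.3%) had one. The median gene had 332 bp under peaks at its ends. Ends are outer gene boundaries, so a gene with a peak at a listed start elsewhere can count as without one. Tspan12 and Gpx4, named after their values were seen, had 0 bp at their ends. Within 2 kb of listed starts they had 910 and 1096 bp. These shares are the background for the gene lists below, whose members are described by counts and not tested. Some genes are members of several lists, so the counts of the lists are not independent. In cells pooled in bulk, a peak in a small share of cells cannot be told apart from weak acetylation in all of them.

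Defining markers of endothelium and of other lung cells were counted against the background of 68.4%. Of 9 endothelial markers, 8 had a peak at their ends, all 8 with a peak wider than the smallest width, and the median was 955 bp. Cldn5 was the marker at 0. Among 8 epithelial markers 5 had a peak (3 a wider one; median 104 bp), with Epcam, Cdh1 and Ager at 0. Among 8 leukocyte markers 2 had one, Spi1 with 1015 bp and Lyz2 with 684 bp, and Ptprc, Cd3e, Cd79a, Itgam, Csf1r and Adgre1 were at 0. Among 8 mesenchymal markers 6 had one (5 a wider one; median 307.5 bp), led by Acta2 with 721 bp, and Pdgfra and Tcf21 were at 0. Summed over the list, covered bases were 7797 bp for endothelium, 1927 for epithelium, 1699 for leukocytes and 2510 for mesenchyme. Whether other cells in the preparation contributed was not tested.

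Endothelial identity genes had H3K18ac at their ends in 30 of 32 cases, with a median of 645 bp against 332 bp over all genes. S1pr1, the receptor for sphingosine-1-phosphate, led with 1396 bp in 4 peaks. Cdh5 (VE-cadherin, gene ID 12562) had 1393 bp in 6 peaks, one of 456 bp at an end of the gene, chr8:104101426-104101881 and a wider one of 629 bp inside the gene at 104121625 to 104122253. Tek, the angiopoietin receptor TIE2, had 1322 bp in 4 peaks. Kdr (gene ID 16542) had 1245 bp in 5 peaks, of which the widest, 569 bp, lay at the end of the gene opposite its start, 44.6 kb from it, and the second, 331 bp, over the start shown above. Pecam1 (CD31, gene ID 18613) had 666 bp at its ends and 4512 bp in 17 peaks over its span, the widest of them 597 bp inside the gene, 20.7 kb from an end.

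Some genes of this list had most of their covered bases away from their ends. Erg, an ETS factor that maintains endothelial identity, had 147 bp at its annotated ends and 5267 bp in 26 peaks over 227 kb. Its widest peak, 595 bp at chr16:95438924-95439518, lay 80.1 kb from an end and 20.1 kb from the nearest listed start, and shared bases with all 7 other lists. A 363-bp peak lay 1.2 kb from an internal start. The related factors Ets1 and Fli1, named after their values were seen, had 504 and 665 bp at their ends and 8762 and 6517 bp over their spans, in 37 and 30 peaks. Vwf, the clotting factor stored by endothelial cells, had 625 bp in 5 peaks at its ends, of which 209 bp were in a peak wider than the smallest width, and 3092 bp in 20 peaks over 134 kb. Cldn5 had 0 bp of H3K18ac and of the 7 other lists, at its ends and over its span.

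Genes of angiogenic growth and ERK feedback had a peak in 24 of 25 cases (median 896 bp). Myc had 1775 bp in 6 peaks, Dusp6, a phosphatase that switches ERK off, 1611 bp in 4, and Igf1r 1509 bp in 7. Aplnr, the apelin receptor, had 0 bp. Arterial and Notch genes followed with 16 of 17 (median 806 bp): the Notch targets Hes1 and Hey1 had 1588 and 1395 bp and the ligand Jag1 1414 bp, 993 bp of it in 1 peak, whereas Jag2 had 0 bp at its ends and 601 bp inside. Of venous and lymphatic genes 13 of 15 had a peak (median 491 bp), led by Ephb4 (1374 bp), Selp (P-selectin, 1117 bp) and Flt4 (the lymphatic VEGF receptor, 950 bp), with Ackr1 at 0. Lung capillary genes had a peak in 15 of 20 cases, with a median of 221 bp, below that of all genes. Among these Plvap, of the diaphragms of fenestrated capillaries, had 1530 bp, Tbx2 931 bp and Ednrb 683 bp.

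Genes listed as writers, erasers and readers mostly had a peak, for H3K18ac as for other marks. Of the 24 genes, 23 had an H3K18ac peak at their ends (median 706 bp). H3K27ac and H4K8ac peaks lay there at all 24, and H3K4me3 peaks at 23. The list holds acetyltransferases and deacetylases at large, and which of them act on lysine 18 was not examined. Ep300 had a single peak of 1382 bp over its start, at chr15:81585111-81586492, and Crebbp, which encodes CBP, had 832 bp in peaks of 457 and 375 bp. Among the other acetyltransferases, Kat2a had 328 bp, Kat2b 691, Kat5 888, Kat6a 679, Kat6b 888, Kat7 929, Kat8 504, Hat1 594 and Naa60 289 bp. Sirt7, the H3K18 deacetylase, had 604 bp in 3 peaks, the widest 252 bp. Sirt1 had 898 bp, Sirt2 601 and Sirt6 721 bp. Class I deacetylases ran from 0 bp at Hdac8 through 661 bp at Hdac1 and 1012 bp at Hdac2 to 1181 bp at Hdac3. The bromodomain readers Trim24 and Trim33 had 1170 and 888 bp, and Brd2 and Brd3 had 411 and 122 bp. Brd3 and Naa60 had 989 and 781 bp within 2 kb of listed starts, so their values at gene ends depend on where the start is placed.

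Cystine, cysteine and glutathione genes had a peak in 28 of 32 cases (median 655 bp). Slc7a11, which brings cystine into the cell, had 104 bp at its annotated ends but 3800 bp in 17 peaks over the span. RefSeq extends the gene to position 50499087 on chromosome 3, and the listed start lies inside that span, with 715 bp under peaks within 2 kb. A 412-bp peak at chr3:50443498-50443909 lay over that start, and wider ones of 493 and 430 bp lay 9.19 and 5.32 kb from it. Got1, the cytosolic aspartate aminotransferase, had 1263 bp, Csad, of taurine synthesis, 1221 bp, and Txn1 (thioredoxin) 1131 bp. Cth, which makes cysteine from cystathionine, had 340 bp in 2 peaks, and Gclc, the catalytic subunit of glutathione synthesis, had 1 peak of 706 bp. Cdo1, the cysteine dioxygenase, had 0 bp. Acetyl-CoA supply genes had a peak in 22 of 24 cases (median 618.5 bp), with Mpc1 of the mitochondrial pyruvate carrier at 1238 bp, Crat at 979 bp and Hadha at 973 bp. Acss1, the mitochondrial acetyl-CoA synthetase, had 0 bp over its whole span.

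No stress or immediate-early gene was without a peak. All 24 immediate-early and AP-1 genes had a peak at their ends, with a median of 1078 bp. Klf10 had 1986 bp in 6 peaks, Maff 1977 bp in 7, and Myc is a member here too. All 21 genes of the amino acid and oxidative stress response had one (median 851 bp), led by Psat1 of serine synthesis with 1929 bp in 8 peaks, Ddit3 (CHOP) with 1553 bp and Nfe2l2 with a single peak of 1486 bp. Slc7a11, also a member of the cystine list, counts here through a single peak of the smallest width, 104 bp. Housekeeping genes had a peak in 21 of 22 cases (median 832 bp), with Gapdh at 1606, Eef2 at 1364 and Ppia at 1293 bp. Ywhaz, the exception, had 0 bp at its ends and 2467 bp inside, with a peak of 880 bp.

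At gene ends, the lists of other cell types and tissues and of developmental factors lay at or below the background. Over the span with 2 kb either side, lung epithelial genes (84.2%) and neuronal genes (83.3%) lay above the background of 77.3%, and the other 4 lists lay below it. A peak lay at the ends of 13 of 19 lung epithelial genes (68.4%, median 104 bp, led by Krt8 with 850 bp, Scgb1a1 with 707 and Abca3 with 667), 8 of 21 leukocyte genes (median 0, led by Spi1, Cd68 with 935 bp and Lyz2) and 13 of 19 mesenchymal genes (median 136 bp, led by Fn1 with 1004 bp). Neuronal genes had 11 of 18 (median 104 bp), led by Syn1 (1105 bp) and Tubb3 (841 bp). Genes of liver, pancreas and muscle had 9 of 21 (median 0, at most 417 bp at Actn3), and developmental transcription factors 13 of 28 (median 0). Of the last, Hoxa9 had 687 bp and Gata4 385 bp, and Foxa2 had 0. Cnn1 of smooth muscle, Chat of cholinergic neurons and Ckm of muscle had 0 bp at their ends. Many of these hits were peaks at the smallest width: counting wider peaks, neuronal genes had 4 and developmental factors 6. Of 1110 olfactory receptor genes 87 (7.84%) had a peak.

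**Figure D4:**
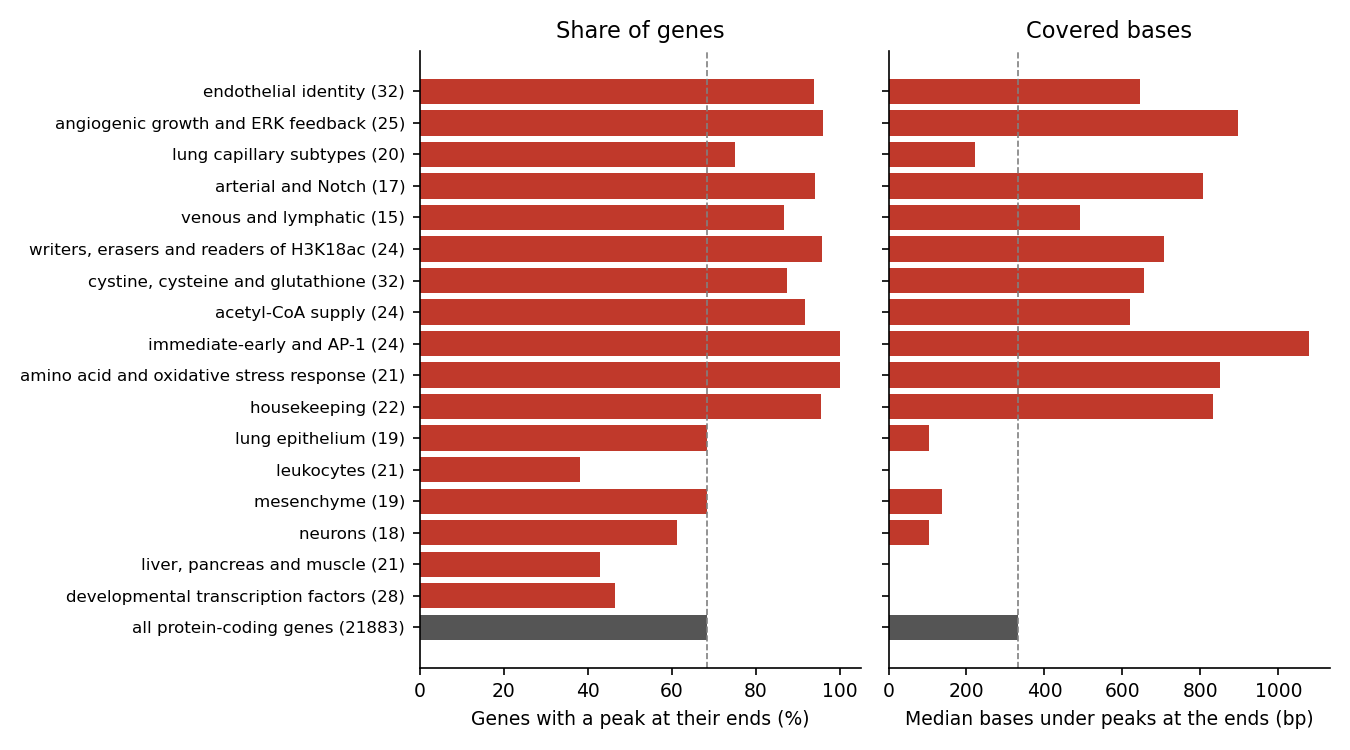
Left, share of genes (%) with an H3K18ac peak within 2 kb of either gene end; right, median bases under peaks there (bp), for 17 gene lists (number of genes in brackets) and all 21883 protein-coding genes (grey bar and dashed line, 68.4% and 332 bp). Immediate-early genes stand highest in median, with 1078 bp, and share 100% with the stress response genes, and leukocyte genes are lowest in share, with 8 of 21.

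Over gene spans, the 15 genes with most covered bases were all long. Pde4d, a cAMP phosphodiesterase of 1302 kb, carried 166 H3K18ac peaks over 31797 bp and 0 bp at its annotated ends. Nav2 had 28051 bp in 139 peaks, Arhgap26 26637 bp in 131, and Ptprm, a phosphatase of endothelial junctions, 24306 bp in 121. Tcf4 had 23661 bp in 100, Foxp1 21199 bp in 109 and Cdh13 (T-cadherin) 21180 bp in 116. The other 8 of the leading 15, Frmd4a, Ttc28, Elmo1, Macrod2, Magi1, Hivep3, Dst and Aopep, had 17904 to 20663 bp. The order follows length in part: genes under 5 kb had a median of 0 peaks over the span, genes of 50 to 100 kb 7, and genes over 200 kb 23.

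At gene ends the order was another. Klf13 had 2700 bp, Bhlhe40 2487, Agbl5 2334, Gm46294 2288 and Zswim6 2218 bp. Mvd, of the mevalonate pathway, had 2091 bp, Adamtsl4 2090, Tm9sf1 2064, Lcor 2058, Fam214b 2045 and Rai1 2031 bp. Slc38a2, the glutamine transporter SNAT2, had 1999 bp, Ttc7b 1997, Cux1 1993 and Klf10 1986 bp. At every one of these 15 genes the 7 other lists had a peak too.

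Peaks also gathered in clusters. Joined across gaps of up to 12.5 kb, they formed 45915 clusters, of which 19169 were single peaks and 64 held 50 or more. The cluster with most covered bases, chr17:26451764-26677154, spanned Dusp1, Ergic1 and Atp6v0e with 76 peaks over 19676 bp. Next came a gene-dense stretch on chromosome 8 around Jund and Gdf15 (74 peaks, 18534 bp) and the locus of Ptpn14 on chromosome 1 (84 peaks, 18296 bp). The paired collagen genes Col4a1 and Col4a2 on chromosome 8 followed with 86 peaks over 18039 bp. Clusters around Cebpb (69 peaks) and Gnaq (77 peaks) were among the leading 11. Between chromosomes, density ran from 55.8 peaks per Mb on chromosome 14 to 84.7 on chromosome 11, with 23 on X and 1.55 on Y. Across the 19 autosomes, Pearson's correlation with genes per Mb was 0.682, given as a description since chromosomes are not replicates.

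Of the other lists, H3K27ac shared most places with H3K18ac. Of H3K18ac peaks 49.1% shared a base with an H3K27ac peak, and 72.4% of H3K27ac peaks shared one with an H3K18ac peak. For H4K8ac the shares were 46.9% and 45.7%, and for H3K14ac, the longest list, 46.7% and 14%. H2AK5ac took 21.8% and 56.9%, H3K23ac 21.6% and 39.3%, H3K4me3 21.3% and 54.3%, and H3K9ac 19.6% and 64.6%. All lists come from the same kind of cells and the lists differ in length, so these shares are descriptions. Among wider H3K18ac peaks the share on the H3K27ac list was 83.4%, and among those at the smallest width 12.7%. The pairing also depended on place: 62.6% of H3K18ac peaks at gene ends shared a base with H3K4me3, against 9.81% outside genes, while H3K27ac was on 67.8% and 40.8%.

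Peaks on few lists were narrow and distal. On no other list were 56285 peaks (33.6%), of which 92.5% had the smallest width and 8.08% lay at a gene end. On all 7 others were 10003 (5.98%), with a median width of 469 bp and 45.5% at gene ends. The combination of H3K27ac, H4K8ac and H3K14ac alone held 10366 peaks, of which 6.19% lay at gene ends. The 5987 peaks with all others but H2AK5ac had 74.2% there. Of 8249 peaks of 500 bp or wider 99.6% were on 3 or more other lists, and 1 was on none. That one, chosen here after its value was seen, measured 673 bp at chr19:36110104-36110776, 1188 bp from Ankrd1, which encodes a cardiac and YAP-responsive ankyrin protein. A second peak of Ankrd1, 428 bp over its start, was on all 7 other lists.

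Few genes separated the H3K18ac list from the rest. All 8 lists had a peak at the ends of 6801 genes (31.1%). H3K18ac without any other list marked 126 genes, 0.842% of those with H3K18ac, and in 7 of them a peak was wider than the smallest width. These 7, named after their values were seen, were Adra2c, Foxb2, Gm42427, Inhba, Irs4, Prr9 and Slitrk2, with 8 to 343 bp. The reverse, all 7 other lists without H3K18ac, held for 6 genes, also named after the values were seen: Atmin, Camk2b, Chrne, E030018B13Rik, Pex2 and Ralgds. At Pex2 the other lists included 2 bp of H3K4me3 and 6 bp of H3K9ac. Over the span with 2 kb either side, Atmin, Camk2b, Pex2 and Ralgds had 789, 1355, 935 and 4256 bp of H3K18ac. Chrne and E030018B13Rik had 0 bp there. H3K18ac without H3K27ac lay at 1695 genes and H3K27ac without H3K18ac at 544. For H3K4me3 the counts were 2339 and 827.

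Promoters under a peak were richer in CpG. RefSeq promoter entries of 300 bases (250 before and 50 after the start) were matched for 17491 of the 21883 genes. Cdh5, Pecam1 and Vwf were among the genes without an entry. Of the 21262 entries, 51.1% had a base under an H3K18ac peak. Those entries had a median GC content of 62% and 22 CpG dinucleotides, against 49.7% and 4 in the others. With 0 to 4 CpG 8.25% of entries had a peak, with 5 to 9 28.6%, with 10 to 19 67.9% and with 20 or more 84.4%. The Sp letters, in 46.2% of all entries, were in 68.3% of those with a peak and 23.1% of those without. For ETS the shares were 11.6%, 19.5% and 3.31%, for CRE 2.23%, 3.45% and 0.961%. All 3 of these motifs contain a CpG. The NF-Y letters stood at 38.2%, 38.8% and 37.6%, whereas TATA (12.6%, 5.9% and 19.6%) and AP-1 (6.99%, 5.47% and 8.57%) were rarer under peaks. No match of a motif to another in this set of letters was removed, so overlapping matches each count.

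Within classes of CpG number the motifs kept part of these differences. Among entries with 10 to 19 CpG, 85.4% of those with the ETS letters had a peak and 64.7% of those without. With 20 or more CpG these shares were 94.1% and 82%. The Sp letters made little difference with 20 or more CpG, where 84.5% with them and 84% without had a peak. For AP-1, rarer under peaks over all entries, the order turned in each class under 20 CpG. With 0 to 4 CpG, 16.5% of the 735 entries with the letters had a peak against 7.11% of the others. With 5 to 9 CpG the shares were 38.6% and 27.6%, with 10 to 19 CpG 74.1% and 67.5%, and with 20 or more 83.3% and 84.5%.

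**Figure D5:**
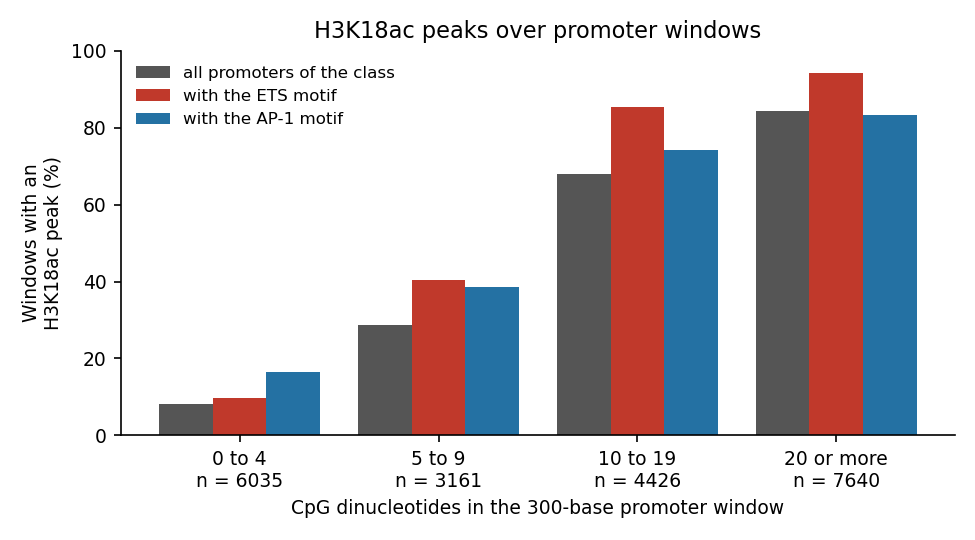
Share of 300-base promoter windows (%) with a base under an H3K18ac peak, by the number of CpG dinucleotides, for all windows of a class and for those with the ETS or the AP-1 letters. The share rises from 8.25% to 84.4% with CpG number, and AP-1 windows lie above their class at 0 to 4 CpG with 16.5%.

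Of 1005 miRNA hairpins 91 (9.05%) lay at least in part under an H3K18ac peak, 47 of them wholly, and 394 (39.2%) had a peak within 2 kb. The hairpin of Mir132, an angiogenic miRNA, lay wholly under a 251-bp peak at chr11:75173573-75173823, and its neighbour Mir212 had 34 of 91 bases under another. Mir126a, the endothelial miRNA in the Egfl7 locus, had 0 of 73 bases covered and 184 bp of peak within 2 kb. The mature 3p strands are shown from RefSeq with the seed, bases 2 to 8, in capitals, since miR-132 and miR-212 share one seed and miR-126a has its own.
miR-132-3p: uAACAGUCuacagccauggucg
miR-212-3p: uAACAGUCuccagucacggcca
miR-126a-3p: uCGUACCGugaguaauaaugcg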

How the data were processed

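ACT-seq libraries of 8 histone marks and IgG, 1 each, were used, here mainly H3K18ac and IgG. As deposited, the data are read counts over 578465 identifiers in a single table. Per the file headers, featureCounts 2.0.6 counted mates singly, ignored strand and dropped any read that touched more than 1 identifier, which removes reads where marks coincide. Per the submitters' processing notes, the builds were mm10 and GRCm38.p6, and Trim Galore, STAR and MACS2 are among the tools named. STAR is a spliced aligner made for RNA. How peaks were called, whether duplicates were removed and whether IgG entered the calling: not given in the sources used here. The regions lie on 228 reference sequences, contigs among them.

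The 8 numbered lists share the identifiers. Regions were assigned so that each list runs in genome order, using list sizes and smallest widths. On simulated lists 99.99% of 17133 regions of the H3K18ac list came back, where the real list holds 171339. Simulated widths were drawn with the same smallest widths that the assignment used, so this share does not measure accuracy on the real lists. The list was matched to H3K18ac by its read density in unshared bases, which is no record of how it was called. Starts were read as counted from 0 and are printed from 1. CPM used table totals. Densities were fitted by non-negative least squares on identifiers of chromosomes 1 to 19, X and Y (SciPy 1.17.1). TMM factors came from edgeR 4.0.16. Genes, starts, promoters and miRNAs came from RefSeq tables of GRCm38.p6, without exons or UTRs, which were not used here. With no replicates, nothing was tested. Intervals and floors cover counting error only, since PCR reads without molecular identifiers are not independent molecules.

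The members, the 17 gene lists and the alternatives were chosen with earlier results of these data known. Named by rule were, in each list, the 3 genes with most covered bases at their ends and the first without any in alphabetical order, the 15 leading genes over spans and over ends, the genes at the 10 widest peaks, the 10 genes with most placeable reads, all writers, erasers and readers, 11 fixed genes and the cell type markers. Some genes that this rule names are not reported here.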

Additional observations from a re-analysis of the deposited data

How the results depend on the processing

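No paired analysis was possible because each target had 1 library. Of 88 alternative values, 55 stayed within the counting interval or within 1.5 times the main count. Some of these could hardly move. With no IgG read in 60910 of 61540 tested identifiers, TMM factors, another prior count and a 4-fold threshold had to give nearly the main count. The tally is therefore a description and no measure of robustness. The 60984 identifiers at 2-fold over IgG became 108589 with no minimum, 18720 with a minimum of 20 reads and 10366 against the IgG floor, which was added after seeing the data. Peaks at gene ends went from 16.7% to 12.6% with 1 kb, 24.5% with 5 kb and 22.4% for wider peaks. Genes with a peak went from 68.4% to 61.4% with 1 kb, 77.3% over the span and 58.5% with wider peaks. Within 2 kb of listed starts the share was 64.6%, over the 17491 genes with a listed start only. Of 51 gene list counts 46 stayed within 1.5 times. The others were lung epithelium (8 with wider peaks), leukocytes (13 over the span), neurons (6 with 1 kb, 4 with wider peaks) and developmental factors (6 with wider peaks). A count within 1.5 times can still change sides of the background. With wider peaks, lung capillary genes went from 75% to 50% and mesenchymal genes from 68.4% to 47.4%. All genes went from 68.4% to 58.5%. Overlap at 50% of the H3K18ac peak, and for wider peaks, was 45.2% and 83.4% for H3K27ac, 38.3% and 78.4% for H4K8ac, 15.2% and 35.5% for H3K9ac, 16.7% and 38.3% for H3K23ac, 11.5% and 39.5% for H2AK5ac, 36.8% and 72.6% for H3K14ac, and 17.5% and 36.7% for H3K4me3. Density in placeable identifiers was 59.5 CPM per kb for H3K18ac, 10.8 for H3K27ac and 0 for IgG. IgG was 2.02 without its 100 highest identifiers, also added. These changes follow from other windows, peaks or minima, and further causes were not tested. Separation by order alone was not run further, since 47.29% of simulated H3K18ac regions came back with it. Taking the smallest width as a limit only, an added alternative, left both shares within their intervals.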
